A study of Mus musculus with 6 samples.

Results

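The genes considered here are those whose RNA fell to at most 1/2 of the lowest control level, in every library, when Meis1 was overexpressed in adult aortic endothelial cells (EC). For each library, the count of a gene was divided by the total of its column and multiplied by 1000000, giving its CPM. A gene was chosen when its lowest YFP-CTRL value was at least 2 CPM and at least 2 times its highest Meis1-OE value. Of 54429 genes listed, 10974 reached 2 CPM in every YFP-CTRL library and 23 of these met the ratio as well. Mmp3, a matrix metalloproteinase gene, was left out by name, as were Dhrs9 and Ptgfr, which did not meet the ratio (1.21 and 1.40), so 22 genes remained. Of these, 17 carry established symbols and 5 carry provisional ones (Gm49339, Gm12185, Gm7993, 9930111J21Rik1 and 9930111J21Rik2), and 21 of the 22 were found by symbol in RefSeq (GRCm38.p6).

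The cells were purchased primary aortic EC of adult WT C57BL/6 mice. They were transduced with a vector that overexpressed Meis1 (Meis1-OE) or with a control vector (YFP-CTRL), with 3 libraries per condition. The paper describes the replicates as independent transductions and does not tie them to separate mice. Transduction was stopped at 48 h, cells positive for YFP, CD31 and VEC were sorted at 72 h, and the sorted cells were re-plated and expanded to confluency before RNA was taken, so both conditions carried a vector and a period of culture. The libraries are called A, B and C after their columns, and values given as 3 figures follow that order. Totals ran from 34176592 to 47956569 counts. Meis1 itself was at 3266, 3586 and 3277 CPM with Meis1 and at 1.14, 1.30 and 1.77 CPM in the controls, with vector and endogenous RNA counted together.

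Meis1 is a TALE homeobox transcription factor that binds DNA with Pbx and Hox partners and is known for its part in blood stem cells and in the emergence of blood from endothelium. The selected genes belong to no single pathway. They encode immunoglobulin-like immune receptors, GTPases of the interferon response, cell adhesion proteins and nuclear zinc finger proteins. Others encode enzymes that clear retinoic acid, adenosine monophosphate and nicotinamide. In bulk RNA, fewer cells that express a gene and less RNA per cell cannot be told apart.

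Endothelial markers were read in all 6 libraries. The cells had been sorted on CD31 and VEC, so the levels of Pecam1 and Cdh5 are no independent check of identity. Pecam1, which encodes CD31, was between 887 and 1021 CPM with Meis1 and between 764 and 1062 CPM in the controls, and Cdh5, which encodes VEC, was at no less than 1304 CPM in any library. The 8 markers were not level between the conditions: Tek, an angiopoietin receptor, was lower (log2 fold change -0.78, adjusted p = 0.0351 from edgeR) and Vwf, which encodes von Willebrand factor, was higher (3.12, adjusted p = 0.0120 from edgeR), and DESeq2 also called Cdh5 and Kdr lower (-0.70 and -1.23, adjusted p = 0.0535 and 0.0504 from edgeR). Kdr, a VEGF receptor, was at 334 ± 43.0 CPM with Meis1 and at 712 ± 262 CPM in the controls (± SD, n = 3 each). The call of Tek was lost without any one Meis1-OE library or YFP-CTRL library B (up to 0.173), and that of Vwf without Meis1-OE library B or C or YFP-CTRL library B (up to 0.0753). Among 10 macrophage markers, Adgre1, C1qa, C1qb and Tyrobp had a count of 0 in all 6 libraries, and the summed level of the list (77.0 to 108 CPM with Meis1, 64.7 to 128 CPM in the controls) was nearly all Cd68. The 10 fibroblast and smooth muscle markers summed to 16.2 to 19.7 CPM with Meis1 and to 34.7 to 49.6 CPM in the controls, with Lum at 0 throughout, and Pdgfra was the largest of them in every library but YFP-CTRL C, where Acta2 was. Of the 3 markers of each of these lists that could be tested, edgeR called 0, 2 macrophage and 1 fibroblast marker had an unadjusted p under 0.05, and DESeq2 called 0 and 1 (Pdgfra, lower with Meis1). Proliferation markers differed among the controls: 15 such genes summed to 2175, 2055 and 2039 CPM with Meis1 and to 434, 728 and 1811 CPM in controls A, B and C. The part of these differences in the values below was not tested beyond the fits that leave out a library or carry a proliferation score.

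**Figure D1:**
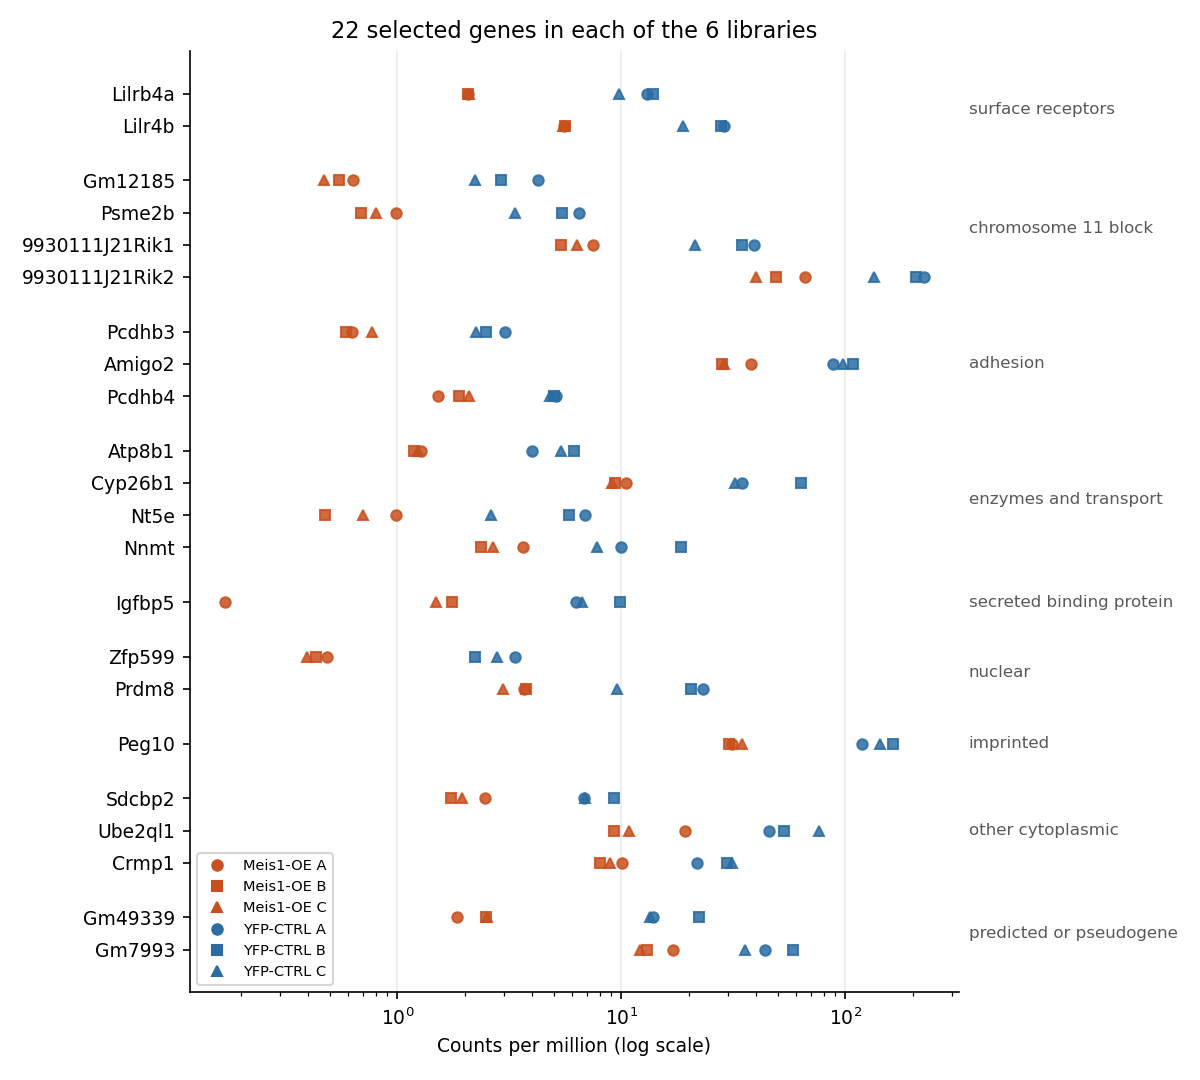
Level of the 22 genes in each library, in CPM on a log axis, grouped by what they encode. Each point is 1 library (orange, Meis1-OE; blue, YFP-CTRL; shape, library letter), and every blue point lies to the right of every orange point because the genes were chosen that way.

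The separation of the conditions in these genes is therefore a property of the choice and not a result. The ratio of the lowest YFP-CTRL to the highest Meis1-OE value had a median of 2.88 and ran from 2.03 for 9930111J21Rik2 to 5.32 for Gm49339. In the fit across all genes, the log2 fold changes of the 22 genes ran from -2.99 to -1.57 with a median of -2.32, beside a median of 0.01 over the 16065 genes tested. All 22 passed the filter on low counts and 22 were called lower (edgeR's quasi-likelihood test, adjusted p under 0.05), where 2.73% of all tested genes were called lower. Both counts rest on the same contrast as the choice. Without Meis1-OE library B the number called was 13, the only library whose removal moved it by more than 1.5 times. The genes lost then were Igfbp5, Cyp26b1, Pcdhb3, Nt5e, Prdm8, Ube2ql1, Pcdhb4, Nnmt and Gm7993. Without Meis1-OE library C the number was 15, and the same genes but Pcdhb3 and Pcdhb4 were lost. Without YFP-CTRL library B the number was 18, and Igfbp5, Nt5e, Prdm8 and Ube2ql1 were lost.

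Membership depended on single libraries. The same rule gave 41 genes without Meis1-OE library A, 37 without YFP-CTRL library A and 181 without YFP-CTRL library C, against 22 to 26 without any one of the other three. The 22 genes were among those found in each of these cases. That was fixed by the rule, since leaving out a library cannot lower the lowest YFP-CTRL value or raise the highest Meis1-OE value. YFP-CTRL library C, whose proliferation markers were nearest to those of the Meis1-OE libraries, was thus the library that kept most other genes out. At the ratio threshold, the last genes inside were Pcdhb4 (2.299), Crmp1 (2.168), Nnmt (2.143), Gm7993 (2.099) and 9930111J21Rik2 (2.027). The first outside were Il11ra1 (1.999), Mertk (1.968), Gpc6 (1.926), Rgs2 (1.922) and Tbc1d9 (1.921). At the level threshold, the lowest YFP-CTRL values were 2.21 CPM for Gm12185, 2.22 for Zfp599, 2.25 for Pcdhb3, 2.61 for Nt5e and 3.36 for Psme2b inside, and 1.84 for Pcdhb2, 1.38 for Kcnk10, 1.36 for Mmp13, 1.15 for Zfp119b and 1.11 CPM for Asb4 outside.

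**Figure D2:**
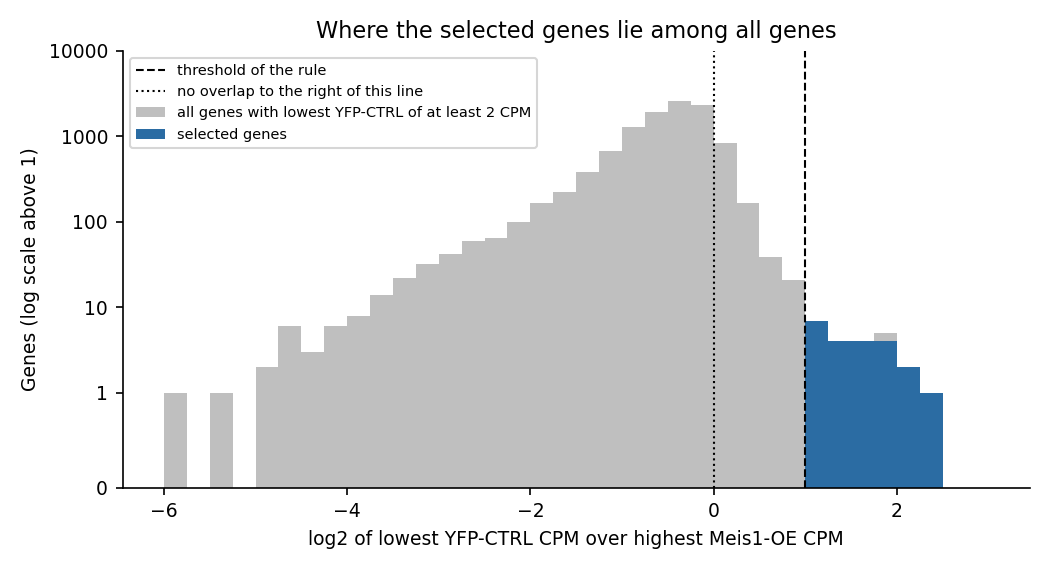
Number of genes (log scale above 1) by the log2 ratio of their lowest YFP-CTRL to their highest Meis1-OE CPM, for the 10974 genes with at least 2 CPM in every YFP-CTRL library. The dotted line marks the point beyond which the conditions do not overlap, passed by 1081 genes (9.85%), and the dashed line marks the ratio of 2; the 1 grey gene beyond it is Mmp3.

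Lilrb4a and Lilr4b are paired immunoglobulin-like receptors that lie next to each other on chromosome 10. Lilrb4a (gp49B) carries inhibitory motifs in its tail and restrains mast cells and myeloid cells, whereas Lilr4b (gp49A) lacks them. Lilrb4a was at 2.07, 2.06 and 2.08 CPM with Meis1 and at 13.0, 13.8 and 9.78 CPM in the controls. Lilr4b was at 5.52, 5.59 and 5.46 CPM with Meis1 and at 28.6, 27.7 and 18.8 CPM in the controls. Both genes were almost level across the Meis1-OE libraries, and in both YFP-CTRL library C was the lowest control. Their log2 fold changes were -2.69 (standard error 0.19) and -2.32 (standard error 0.19).

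In RefSeq, Lilr4b spans chr10:51480612-51486329 and Lilrb4a spans chr10:51490898-51496613, with 4568 bases between them. Their coding sequences are 96.2% identical over 1005 aligned bases, and 16.6% of the 50-base windows of the Lilrb4a transcript also occur in that of Lilr4b, so reads could have been assigned to either gene. Counts of Lilr4b were not whole numbers in all 6 libraries and those of Lilrb4a in 5, as happens where reads are divided among genes by estimation. Among 8 other tested genes for inhibitory immunoglobulin-like receptors and their phosphatases, 0 passed in either direction with edgeR, 2 had an unadjusted p under 0.05, and DESeq2 called 1 higher. That gene was Sirpa, a receptor for CD47, at 23.9 ± 2.48 CPM with Meis1 and 11.3 ± 3.71 CPM in the controls (± SD, n = 3 each; log2 fold change 0.94, adjusted p = 0.0631 from edgeR). Pirb, another inhibitory receptor of this kind, was below 0.5 CPM in every library. Of the 10 macrophage markers, 4 had no count, as given above, and of the tested ones Csf1r and Lyz2 stood at 1.63 each on the log2 scale, at most 0.591 and 0.909 CPM in any library, with unadjusted p of 0.0310 and 0.0453 in edgeR. Their part in the receptor values was not tested.

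On chromosome 11, 4 of the 22 genes lie in a single block of immunity-related GTPase genes, a family induced by interferon that acts on the vacuoles of intracellular pathogens. 9930111J21Rik2 (RefSeq synonym Irgb5) was at 66.0, 49.1 and 40.0 CPM with Meis1 and at 225, 207 and 134 CPM in the controls. 9930111J21Rik1, its near copy, was at 7.49, 5.38 and 6.31 CPM and at 39.0, 34.7 and 21.2 CPM. Gm12185 (synonym Irgb2b1) was at 0.631, 0.546 and 0.470 CPM and at 4.26, 2.89 and 2.21 CPM. In all 3 genes the controls kept the order A, B, C from high to low. Psme2b, an intronless copy of the gene for the beta subunit of the PA28 proteasome activator, lies in the same block and was at 0.990, 0.689 and 0.800 CPM with Meis1 and at 6.46, 5.45 and 3.36 CPM in the controls. The log2 fold changes of the 4 genes ran from -2.02 (standard error 0.24) for 9930111J21Rik2 to -2.77 (standard error 0.30) for Psme2b.

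These values are not 4 independent measurements. The RefSeq spans are chr11:48904656-48927182 for Gm12185, chr11:48945345-48946410 for Psme2b, chr11:48946150-48979381 for 9930111J21Rik1 and chr11:49037660-49051242 for 9930111J21Rik2, and Psme2b and 9930111J21Rik1 overlap by 261 bases on the same strand. The coding sequences of the 2 9930111J21Rik genes are 99.6% identical, those of 9930111J21Rik1 and Gm12185 are 93.5% identical, and that of Psme2b is 99.3% identical to Psme2. All 4 genes had counts that were not whole in every library, a property of 18.1% of tested genes. Psme2 itself, on another chromosome and the source of the copy, was at 10.4 CPM on average with Meis1 and 9.14 CPM in the controls (log2 fold change 0.06, adjusted p = 0.858 from edgeR).

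The sequences just before the start of these genes are shown because the genes lie together and were selected together, with that of Lilr4b added. They are the 250 bases before the RefSeq start (GRCm38.p6), written 5′ to 3′ along the gene, with a match to 1 motif per sequence in capitals, out of 5 short motifs searched. TGANTCA is the AP-1 site, TGACAG the Meis site, GAAANNGAA the core of the interferon-stimulated response element, TTCNNNGAA the STAT-type GAS element and TGATTNAT the joint Pbx-Hox site.
9930111J21Rik2, chr11:49051243-49051492, minus strand: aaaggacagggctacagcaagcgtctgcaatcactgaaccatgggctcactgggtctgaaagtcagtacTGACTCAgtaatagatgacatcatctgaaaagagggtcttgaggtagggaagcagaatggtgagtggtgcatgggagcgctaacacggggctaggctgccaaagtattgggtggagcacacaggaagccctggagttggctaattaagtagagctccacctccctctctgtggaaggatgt
9930111J21Rik1, chr11:48979382-48979631, minus strand: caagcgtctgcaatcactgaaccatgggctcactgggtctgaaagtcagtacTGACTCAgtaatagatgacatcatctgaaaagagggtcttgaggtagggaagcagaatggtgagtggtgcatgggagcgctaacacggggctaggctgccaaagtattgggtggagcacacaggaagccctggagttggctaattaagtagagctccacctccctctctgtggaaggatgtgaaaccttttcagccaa
Gm12185, chr11:48927183-48927432, minus strand: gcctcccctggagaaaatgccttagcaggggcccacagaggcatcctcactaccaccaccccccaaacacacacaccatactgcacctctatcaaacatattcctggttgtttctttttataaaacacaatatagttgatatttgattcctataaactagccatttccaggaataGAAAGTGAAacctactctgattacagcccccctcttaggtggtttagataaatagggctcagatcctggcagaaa
Psme2b, chr11:48946411-48946660, minus strand: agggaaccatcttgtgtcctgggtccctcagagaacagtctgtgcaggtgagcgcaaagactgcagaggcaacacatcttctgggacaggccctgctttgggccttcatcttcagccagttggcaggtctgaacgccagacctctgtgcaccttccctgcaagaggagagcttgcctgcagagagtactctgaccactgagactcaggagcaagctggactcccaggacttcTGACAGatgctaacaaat
Lilr4b, chr10:51480362-51480611, plus strand: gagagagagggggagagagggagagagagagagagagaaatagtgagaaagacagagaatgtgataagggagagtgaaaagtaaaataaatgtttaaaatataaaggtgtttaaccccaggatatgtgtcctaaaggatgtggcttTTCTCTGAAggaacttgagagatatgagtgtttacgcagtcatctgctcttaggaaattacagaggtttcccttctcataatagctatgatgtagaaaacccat
The 2 9930111J21Rik windows are copies of each other: over windows of 300 bases (250 before and 50 after the start) they share an unbroken run of 283 bases, shifted by 17, so their TGACTCA lies 181 bases before the start of 9930111J21Rik2 and 198 before that of 9930111J21Rik1. Gm12185 holds GAAAGTGAA 75 bases before its start and, not in capitals, a match to TTCNNNGAA just before that. Psme2b holds TGACAG 18 bases before its start, and Lilr4b holds TTCTCTGAA 104 bases before its own. The Psme2b window lies wholly within the span of 9930111J21Rik1, which is on the same strand. Of the 22 genes, 13 had a promoter in the table used. Over the 300-base windows and both strands, TGACAG was found in 3 of the 13 (Lilr4b, Prdm8 and Psme2b), beside 21.6% of 27025 genes, and TGATTNAT in 0 of 13 beside 3.74%. TGANTCA was found in 3 of 13 (8.97% of all genes), GAAANNGAA in 2 (9.76%) and TTCNNNGAA in 2 (9.55%). A match is a description of these letters and not evidence of binding.

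**Figure D3:**
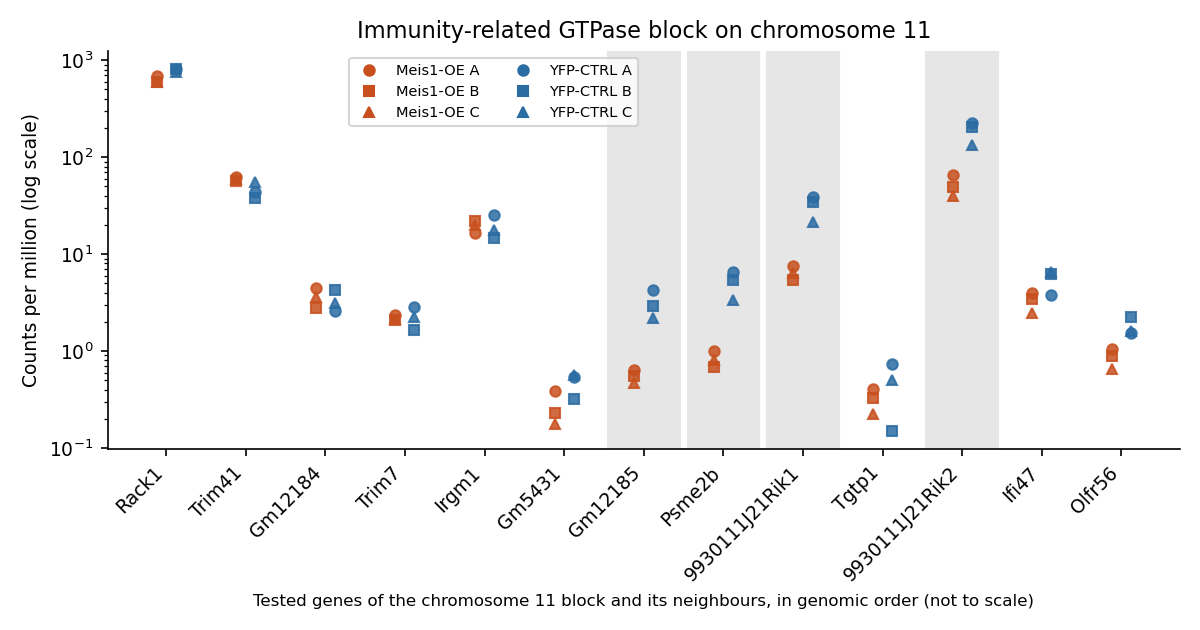
Level (CPM, log axis) of the 13 tested genes of the chromosome 11 block and its surroundings, in genomic order. Points are libraries (orange for Meis1-OE, blue for YFP-CTRL, shape for the letter), and the 4 shaded genes are the selected ones. Of the 9 others, Rack1 and Olfr56 lie lower and Trim41 higher with Meis1 in every library, while the rest overlap. Among all genes with at least 2 CPM in every YFP-CTRL library, 9.85% lie lower without overlap.

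Other genes of the same block and family were measured as well. Irgm1, a regulator of the family, was at 16.6, 21.8 and 19.9 CPM with Meis1 and at 25.3, 14.7 and 17.7 CPM in the controls, with the conditions overlapping (log2 fold change -0.11, adjusted p = 0.785 from edgeR). Tgtp1, which lies between the 2 9930111J21Rik genes, overlapped as well (-0.63, adjusted p = 0.492 from edgeR). Ifi47, on the far side, stood at -0.91 on the log2 scale (standard error 0.29, adjusted p = 0.101 from edgeR), with DESeq2 calling it lower. Olfr56, an olfactory receptor gene beyond it, was at 1.04, 0.886 and 0.659 CPM with Meis1 and at 1.55, 2.24 and 1.61 CPM in the controls, with no overlap (log2 fold change -1.22, standard error 0.29, adjusted p = 0.0506 from edgeR). Of the 9 neighbours of the block that were tested, DESeq2 called 3 lower and 0 higher. With edgeR only Rack1 passed (lower, adjusted p = 0.0373). Of 7 other tested genes of the family, 0 passed downward with edgeR (2 at an unadjusted p under 0.05, 1 with DESeq2) and 1 passed upward. This was Igtp, at 2.72 ± 0.683 CPM with Meis1 and 0.866 ± 0.341 CPM in the controls (± SD, n = 3 each; log2 fold change 1.54, adjusted p = 0.0427 from edgeR), a call lost when any Meis1-OE library or YFP-CTRL library B was left out (0.0738, 0.201, 0.163 and 0.145).

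The wider interferon list held no gene that passed downward. Of its 22 tested genes, 0 passed downward (0 at an unadjusted p under 0.05, 0 with DESeq2) and 2 passed upward, with 4.14% of all tested genes called higher; DESeq2 called 8 higher. Among these, Oas2, a sensor of double-stranded RNA, was at 0.314, 0.454 and 0.439 CPM with Meis1 and at 0.0293, 0.0224 and 0 CPM in the controls (adjusted p = 0.0128 from edgeR). This call did not hold without Meis1-OE library B or C or YFP-CTRL library B (adjusted p of 0.0791, 0.0719 and 0.0670 from edgeR).

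Pcdhb3 and Pcdhb4 encode clustered protocadherins, which recognise like molecules on neighbouring cells, and each gene of the cluster has its own promoter. Pcdhb3 was at 0.628, 0.591 and 0.769 CPM with Meis1 and at 3.01, 2.49 and 2.25 CPM in the controls. Pcdhb4 was at 1.52, 1.89 and 2.09 CPM and at 5.09, 4.98 and 4.80 CPM. The controls of Pcdhb4 spread least of all 22 genes, with a coefficient of variation (SD over mean) of 3.01%. Their coding sequences are 77.3% identical, no 50-base window is shared, and their counts were whole in every library, so the reads of these 2 genes could be told apart. The log2 fold changes were -2.09 (standard error 0.25) and -1.57 (standard error 0.21).

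The other Pcdhb genes did not meet the rule and were tested. This was no independent test, since the cluster was taken up because Pcdhb3 and Pcdhb4 had been chosen from the same libraries. Pcdhb2 met the ratio (2.46) and missed only the level (1.84 CPM). Of 19 other Pcdhb genes, 5 passed downward and 0 upward with edgeR (10 and 0 at an unadjusted p under 0.05, 6 and 0 with DESeq2), where 2.73% and 4.14% of all tested genes were called. These were Pcdhb2, Pcdhb5, Pcdhb6, Pcdhb7 and Pcdhb10, which lie on either side of the selected pair. Pcdhb2 was at 0.748, 0.636 and 0.593 CPM with Meis1 and at 2.19, 1.84 and 1.88 CPM in the controls (log2 fold change -1.72, standard error 0.23, adjusted p = 0.00956 from edgeR). Pcdhb5 was at 3.60, 4.26 and 4.68 CPM and at 10.6, 8.47 and 7.32 CPM (-1.21, standard error 0.20, adjusted p = 0.0187 from edgeR). In each of the 5 genes every Meis1-OE library was below every YFP-CTRL library. The same held for 9.85% of all genes with at least 2 CPM in every YFP-CTRL library. Further along, values lay nearer to 0: Pcdhb15, Pcdhb16 and Pcdhb17 stood at 0.04, -0.13 and -0.16 on the log2 scale (adjusted p = 0.912, 0.506 and 0.432, edgeR), and Pcdhb18 to Pcdhb22 lay between -0.29 and -0.16. Pcdhb1 had no count in any library. The 5 calls were lost without Meis1-OE library B (adjusted p from 0.0767 to 0.166) or C (from 0.0669 to 0.173), and those other than Pcdhb2 also without Meis1-OE library A (from 0.0695 to 0.117) or YFP-CTRL library B (from 0.0753 to 0.112). With the proliferation score, Pcdhb5, Pcdhb7 and Pcdhb10 did not pass (adjusted p = 0.0504, 0.0708 and 0.0613 from edgeR).

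**Figure D4:**
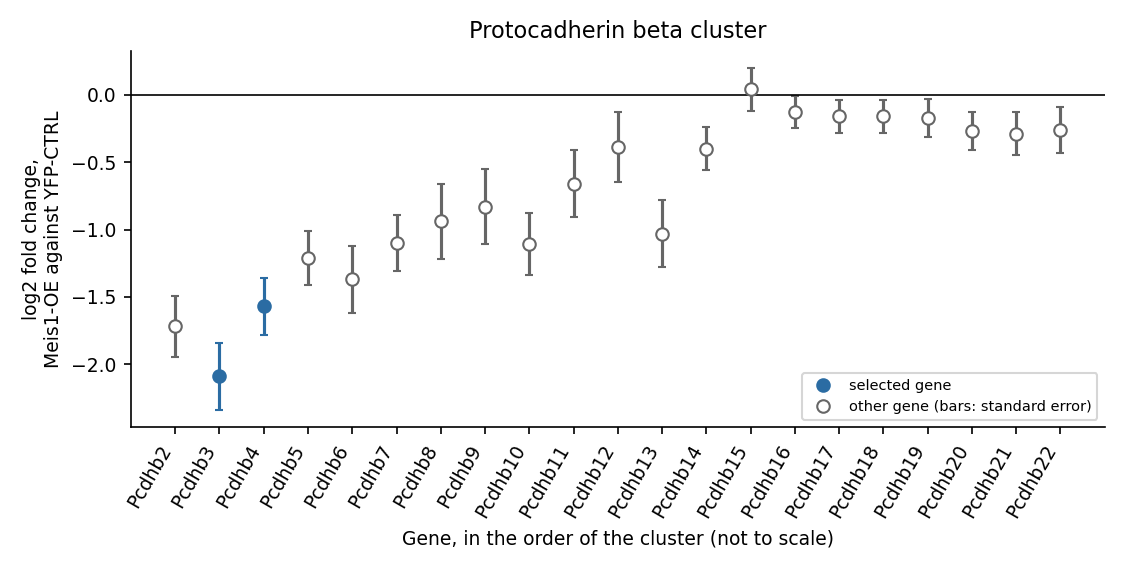
Log2 fold change (Meis1-OE against YFP-CTRL) with its standard error from edgeR for the 21 tested Pcdhb genes, in the order of the cluster. The selected Pcdhb3 and Pcdhb4 (filled) are at -2.09 and -1.57, the genes up to Pcdhb13 lie below 0, and the values from Pcdhb15 onward lie within 0.3 of 0.

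Amigo2, an adhesion protein with leucine-rich repeats, was at 37.7, 28.1 and 28.8 CPM with Meis1 and at 88.0, 108 and 97.4 CPM in the controls, a log2 fold change of -1.79 (standard error 0.15). Its relatives Amigo1 and Amigo3 overlapped between the conditions (log2 fold changes -0.72 and -0.06, adjusted p = 0.346 and 0.938 from edgeR). Pced1b, which overlaps Amigo2 by 315 bases on the opposite strand, was at 12.8 ± 0.972 CPM with Meis1 and 12.2 ± 3.06 CPM in the controls (± SD, n = 3 each; log2 fold change -0.09, adjusted p = 0.839 from edgeR).

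A group of 4 genes encodes enzymes and a lipid transporter. Cyp26b1, which oxidises and so clears retinoic acid, was at 10.5, 9.38 and 9.03 CPM with Meis1 and at 34.5, 63.1 and 32.0 CPM in the controls. Nnmt, which methylates nicotinamide, was at 3.62, 2.36 and 2.68 CPM and at 9.92, 18.5 and 7.76 CPM. In both, YFP-CTRL library B stood above the other 2 controls, and without it their log2 fold changes went from -2.32 to -1.89 and from -2.22 to -1.72. Nnmt was not called with the proliferation score or without any one Meis1-OE library. Nt5e (CD73), which makes adenosine at the cell surface, was at 0.990, 0.477 and 0.703 CPM with Meis1 and at 6.91, 5.85 and 2.61 CPM in the controls. Here YFP-CTRL library C was the low control, and the log2 fold change was -2.96 (standard error 0.43), or -2.19 in a fit that carried a proliferation score as a covariate. Atp8b1, a flippase that moves phospholipids across the plasma membrane, was at 1.28, 1.18 and 1.23 CPM and at 3.98, 6.12 and 5.40 CPM (log2 fold change -2.22, standard error 0.24), with library A as its low control.

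Genes of the related pathways passed in both directions. In the list of prostanoid and retinoid enzymes and receptors, 4 of 14 other tested genes passed downward and 4 upward, against 2.73% and 4.14% of all tested genes. The lower ones were Ptgs2, Ptgfr, Dhrs9 and Rara, of which Ptgfr and Dhrs9 had been left out of the choice by name, and the higher ones included Ptgs1, Ptger4 and Stra6. Stra6, the receptor that takes up retinol from its plasma carrier, was at 6.44, 9.34 and 7.99 CPM with Meis1 and had a count of 0 in each YFP-CTRL library (adjusted p = 0.00195 from edgeR). Stra6 and Ptgs1 passed in each fit that left out 1 library. Ptgs2, Ptgfr, Dhrs9, Rara and Ptger4 did not pass without Meis1-OE library B (adjusted p from 0.0791 for Ptger4 to 0.228 for Rara) or C (from 0.0673 for Ptger4 to 0.189 for Ptgfr), nor without YFP-CTRL library B (from 0.0560 for Ptger4 to 0.150 for Dhrs9). Those other than Ptger4 also did not pass without Meis1-OE library A (from 0.0741 for Ptgs2 to 0.164 for Dhrs9), nor Ptgs2 and Dhrs9 without YFP-CTRL library A (0.0725 and 0.0870). In the fit that carried the proliferation score, Dhrs9 went from -3.19 to -1.46 on the log2 scale and Ptgs2 from -2.22 to -1.36, and neither passed (adjusted p = 0.332 and 0.157 from edgeR). Scaled by library totals, Ptgfr and Rara did not pass (0.0529 and 0.0695), nor did Rara with no filter on low counts (0.0872).

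Among genes of extracellular adenosine handling, Entpd1 (CD39), which makes the substrate of CD73, was at 24.7, 25.3 and 28.6 CPM with Meis1 and at 6.32, 18.7 and 27.7 CPM in the controls, with no call (adjusted p = 0.609 from edgeR). Slc29a1, an adenosine transporter, was lower (15.1 ± 0.439 against 24.0 ± 5.38 CPM, SD, n = 3 each; log2 fold change -0.79, adjusted p = 0.0386 from edgeR), a call lost without any one Meis1-OE library (0.143, 0.176 and 0.162) or without YFP-CTRL library A (0.0524), on library totals (0.0702) or with the proliferation score (0.0846). Of 10 other tested flippase genes, Atp11a was lower (log2 fold change -0.48) and Atp10a higher (1.57), at an adjusted p of 0.0499 and 0.0120 in edgeR. Both calls were lost without any one Meis1-OE library (up to 0.251 for Atp11a and 0.0654 for Atp10a) or without YFP-CTRL library B (0.142 and 0.0668), and that of Atp11a also without YFP-CTRL library A (0.0751), on library totals (0.113), with no filter (0.0882) or with the proliferation score (0.134).

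Igfbp5 encodes a secreted protein that binds insulin-like growth factors. It was at 0.169, 1.75 and 1.49 CPM with Meis1, from counts of 7, 77 and 68, and at 6.29, 9.82 and 6.69 CPM in the controls. Meis1-OE library A stood far below the other Meis1-OE libraries, the widest spread of the 22 genes within a condition (coefficient of variation 74.6%), and the log2 fold change of -2.86 had a standard error of 0.67. Igfbp5 was not called on library totals, in the robust fit, with the proliferation score, or without Meis1-OE library B or C or YFP-CTRL library A or B. Within the family, Igfbp4 was lower, at 856, 708 and 677 CPM against 1606, 1527 and 1514 CPM (log2 fold change -1.20, standard error 0.11, adjusted p = 0.00304 from edgeR), and this call held without each library (up to 0.0335). Igfbp3 was higher, at 1493, 1408 and 1574 CPM against 167, 306 and 424 CPM (log2 fold change 2.17, standard error 0.33, adjusted p = 0.0135 from edgeR), a call lost without any one Meis1-OE library (0.0504, 0.0654 and 0.0669) or without YFP-CTRL library B (0.0753). Every library of one condition lay apart from the other in both genes.

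The nuclear proteins were Zfp599, a zinc finger protein, and Prdm8, a zinc finger protein of the PRDM family of histone methyltransferase relatives. Zfp599 was at 0.483, 0.432 and 0.395 CPM with Meis1 and at 3.36, 2.22 and 2.79 CPM in the controls, from at most 20 and at least 99 counts, with a log2 fold change of -2.81 (standard error 0.25). Its neighbour Zfp809 shares 9954 bases of its span and was at 15.0 ± 0.847 and 17.1 ± 1.37 CPM (± SD, n = 3 each; log2 fold change -0.33, adjusted p = 0.149 from edgeR). Prdm8 was at 3.69, 3.75 and 2.96 CPM and at 23.1, 20.5 and 9.51 CPM, with a log2 fold change of -2.49 (standard error 0.33), or -1.78 with the proliferation score. As in Nt5e, YFP-CTRL library C was the low control of Prdm8.

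Peg10, an imprinted gene of retrotransposon origin expressed from the paternal allele and needed for the placenta, was at 31.2, 30.2 and 34.7 CPM with Meis1 and at 119, 163 and 142 CPM in the controls (log2 fold change -2.29, standard error 0.17). Sgce, its imprinted neighbour, lies 101 bases away from Peg10 in RefSeq and was at 44.5 ± 1.60 and 46.0 ± 4.52 CPM (± SD, n = 3 each; log2 fold change -0.19, adjusted p = 0.408 from edgeR). The values of Sgce overlapped between the conditions.

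Of the remaining established genes, Ube2ql1, a ubiquitin-conjugating enzyme of the E2 type, was at 19.3, 9.25 and 10.8 CPM with Meis1 and at 45.7, 53.1 and 76.4 CPM in the controls, with library A as the high Meis1-OE value and the low control. Crmp1, a cytoplasmic mediator of semaphorin signals, was at 10.04, 7.997 and 8.89 CPM and at 21.8, 29.6 and 31.2 CPM. These 2 were the genes with their highest control in YFP-CTRL library C, and with the proliferation score their log2 fold changes went from -2.32 to -2.70 and from -1.77 to -2.05. Sdcbp2 (syntenin-2), a PDZ domain adaptor, was at 2.46, 1.73 and 1.95 CPM and at 6.79, 9.29 and 6.86 CPM (log2 fold change -2.05, standard error 0.23). Evc, which overlaps Crmp1 by 3194 bases on the opposite strand, had a log2 fold change of 0.78 (adjusted p = 0.142 from edgeR). Dpysl3, a relative of Crmp1, was lower (263 ± 21.8 against 556 ± 134 CPM, SD, n = 3 each; log2 fold change -1.23, adjusted p = 0.0142 from edgeR), a call lost without any one Meis1-OE library (0.0637, 0.0902 and 0.0873).

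The predicted genes outside the chromosome 11 block are Gm49339 and Gm7993. Gm49339 was at 1.84, 2.49 and 2.52 CPM with Meis1 and at 13.8, 22.1 and 13.4 CPM in the controls. It has the largest ratio of the 22 genes and a log2 fold change of -2.99 (standard error 0.29), but its counts were not whole in any library and its symbol was not found in RefSeq, so neither its place nor its product is given. Gm7993, a pseudogene at chr5:95974042-95975823, was at 17.0, 13.0 and 12.1 CPM and at 43.9, 58.6 and 35.6 CPM, with counts that were not whole in 5 libraries (log2 fold change -1.87, standard error 0.22).

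Over the 22 genes, the levels summed to 225, 178 and 176 CPM with Meis1 and to 752, 869 and 665 CPM in controls A, B and C. The controls were not alike. YFP-CTRL library C was the lowest control for 14 of the 22 genes and the highest for 2, where it was the lowest for 34.2% and the highest for 38.5% of all tested genes. Libraries A and B were each the highest control for 10 of the 22, beside 44.8% and 16.7% of all tested genes. In 9 genes (24.9% of all tested genes) the controls fell in the order A, B, C, the order in which their proliferation score rose (4.283, 5.341 and 6.482, beside 6.476 to 6.537 with Meis1); these were the 4 genes of the chromosome 11 block, Lilr4b, Pcdhb3, Pcdhb4, Nt5e and Prdm8. The rule itself bears on which control is low, since the lowest control sets membership. With the proliferation score as a covariate, the median log2 fold change of the 22 genes was -2.12 in place of -2.32. The coefficient of variation had a median of 16.1% with Meis1 and 25.3% in the controls, beside 8.11% and 21.4% over all tested genes.

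**Figure D5:**
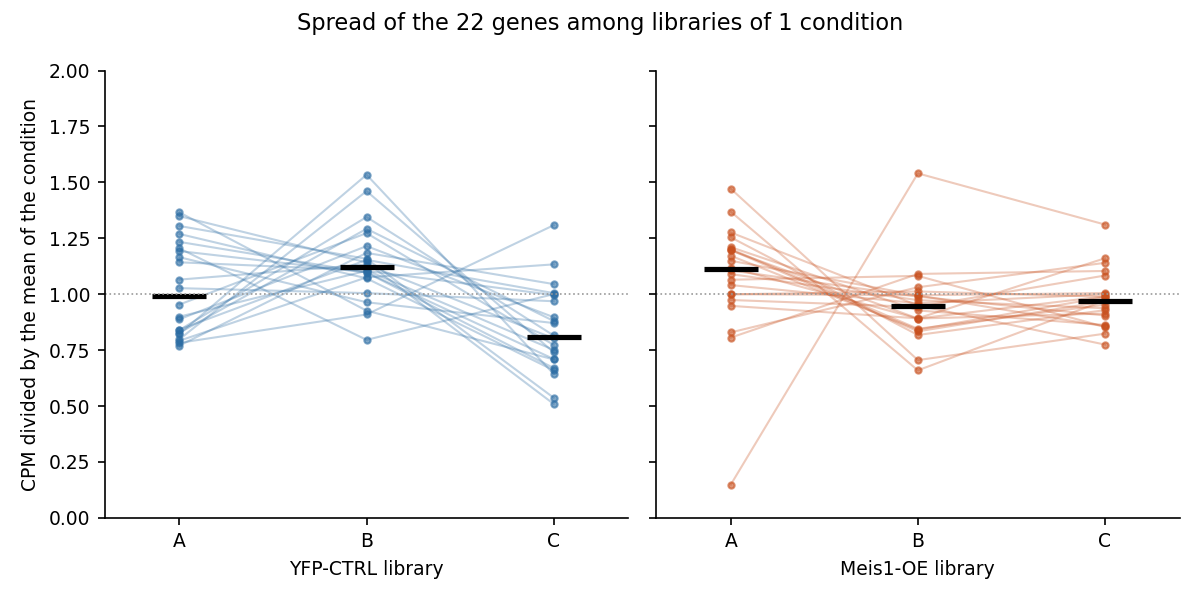
Each of the 22 genes in each library divided by the mean of its condition (1 on the vertical axis), with YFP-CTRL on the left and Meis1-OE on the right. Thin lines join the values of 1 gene and black bars are medians over genes; the letters have no order, YFP-CTRL library C is the lowest control for 14 genes, and the lone low point in Meis1-OE library A is Igfbp5.

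The rule did not use position. Of the 21 genes with a place in RefSeq, 8 lie within 100 kb of another of the 22. They are the Lilr4b and Lilrb4a pair, the 4 genes of the chromosome 11 block and the Pcdhb3 and Pcdhb4 pair. No share for other sets of genes was computed beside this count. The Lilr4b and Lilrb4a pair and the genes of the chromosome 11 block share sequence or overlap, as given above, and are not separate measurements. Of 40 other tested genes within 100 kb of any of the 22, 8 passed downward and 0 upward with edgeR (17 and 3 at an unadjusted p under 0.05, 11 and 1 with DESeq2), beside 2.73% and 4.14% of all tested genes. Outside the Pcdhb cluster these were 4 of 34 (Rack1, Fkbp1a, Med10 and Nsun2), whose log2 fold changes were -0.49, -0.66, -0.80 and -0.86 (adjusted p = 0.0373, 0.0428, 0.0196 and 0.0311, edgeR). The 4 calls were lost without any one Meis1-OE library or YFP-CTRL library B (up to 0.223 for Rack1, 0.201 for Fkbp1a, 0.129 for Med10 and 0.163 for Nsun2). Rack1, Fkbp1a and Nsun2 also did not pass on library totals (0.0868, 0.0508 and 0.0553), Rack1 and Fkbp1a with no filter (0.0675 and 0.0520), and Rack1 with the proliferation score (0.0716). The median log2 fold change of those 34 neighbours was -0.14.

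The other gene lists hold none of the 22 genes. Over all 11 pathway lists, 37 other genes were called, Meis1 itself among them. This pooled count joins both directions and has no number of tested genes beside it. Only the counts per list can be set against the shares of all tested genes, 2.73% called lower and 4.14% higher. Cytokines and growth factors had 2 lower and 3 higher of 21 tested genes (Kitl and Bmp4; Il33, Igf2 and Inhba; 5 and 5 with DESeq2), and chemokines had 1 lower and 1 higher of 9 (Cxcl12 and Ccl7; 3 and 2 with DESeq2). Leukocyte adhesion and coagulation genes had 2 lower and 2 higher of 15 (Procr and Plaur lower, Vwf among the higher; 3 and 2 with DESeq2). Matrix proteases and their inhibitors had 4 lower and 2 higher of 17, with 7 and 2 called by DESeq2. The lower ones were Mmp3, Mmp10, Mmp13 and Adamts1, and the higher ones Adamts12 and Timp1. Mmp3 met both thresholds of the choice and was left out by name, and Mmp13 met the ratio (2.06) but not the level. The calls of Mmp3 and Mmp13 thus rest on the same contrast as the choice. Matrix and contractile genes had 0 lower and 5 higher of 13 (Col5a1, Col8a1, Fn1, Spp1 and Postn), with 3 lower at an unadjusted p under 0.05 and 2 lower and 5 higher with DESeq2. Tip cell and lymphatic endothelial genes had 2 lower and 1 higher of 11 (Plaur and Lyve1; Nid1; 3 and 2 with DESeq2), and endothelial and hemogenic transcription factors had 0 lower and 3 higher of 24 (Lmo2, Hey1 and Meis1), with 3 lower both at an unadjusted p under 0.05 and with DESeq2, which called 4 higher. Of 15 proliferation genes 0 passed with edgeR, 2 had an unadjusted p under 0.05 and DESeq2 called 1 higher. These counts moved with single libraries: 37 list genes became 9 without Meis1-OE library B or C, 11 without YFP-CTRL library B, 17 without Meis1-OE library A and 89 without YFP-CTRL library C.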

How the data were processed

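The authors sequenced ribodepleted RNA and deposited estimated counts per gene, not normalized, in 1 table of 6 columns. Per the labels' processing notes the build is mm10. The aligner, the counting tool and the use of strand are not given in the sources used here. Conditions came from the labels. The letters A, B and C came from the columns and could not be matched to replicate numbers. The members and lists were chosen with earlier results of these data known.

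CPM for the rule came from the deposited estimated counts unrounded. For the fits they were rounded and analysed with edgeR 4.0.16 in R 4.3.3 (TMM, filterByExpr, quasi-likelihood test, Benjamini-Hochberg adjustment over 16065 genes, threshold 0.05). The biological coefficient of variation was 0.233. DESeq2 1.42.0 (the authors used another version of DESeq2), other scalings and filters, a robust fit, a proliferation score, each library left out, a replicate block and other thresholds were the alternatives. DESeq2 called more list genes than edgeR (64 against 37). The shares of 2.73% and 4.14% are from edgeR, and no share over all genes is given for DESeq2 or for unadjusted p. Log2 fold changes carry TMM scaling, and CPM values do not: on library totals the median of all genes moved from 0.01 to 0.15. Both tools were tested on simulated data. P-values cover the spread between these 3 libraries per condition. Totals give counting error only, since reads carry no molecular identifiers.

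Genes to name were the established members, the 5 nearest genes on each side of both thresholds and list genes that passed. Sequences and places came from RefSeq (GRCm38.p6). Identity of coding sequences came from GENCODE vM1 transcripts, aligned with Biopython 1.88 and counted without gaps. Families, neighbours, GAAANNGAA and TTCNNNGAA were added after the members were known. Python 3.11.15 and matplotlib 3.10.9 served for tables and plots. Some genes that the naming rule took are not reported here.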

Additional observations from a re-analysis of the deposited data

How the results depend on the processing

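The rule gave 22 genes, 64 at a ratio of at least 1.5 and 10 at a ratio of at least 3. It gave 32 with TMM-scaled library sizes and 28 without the counts of the abundant Gm26917, and these sets held the same 22 genes. A lowest YFP-CTRL value of at least 1 or 5 CPM gave 27 or 15. Leaving out 1 library gave 22 to 181 genes. The number of the 22 called lower was 20 to 22 with other scalings, filters or tools and with the proliferation score, 19 at an adjusted p under 0.01, and 13 to 22 when 1 library was left out. Their median log2 fold change stayed between -2.49 and -2.12 in all fits tried. The 37 called list genes became 64 with DESeq2, 9 at an adjusted p under 0.01, and 9 to 89 when 1 library was left out. No log2 fold change of a member, or of the 54 other called genes of lists, families and neighbourhoods, changed sign under an alternative. The members were chosen as lower, and the other 54 as called, in these same libraries. The signs and the median of the members are therefore no independent test of stability. Of those 54, 33 passed with the proliferation score, 45 on library totals, 48 with no filter and 29 with the column letter as a replicate block. Most were lost without some libraries: 18 passed without Meis1-OE library A, 10 without B and 10 without C. Without YFP-CTRL library A, B or C, 44, 15 and 54 passed. With the column letter as a replicate block, 22 genes were called lower, the median was -2.28 and 25 list genes were called. Deviations from the group means correlated at 0.267, 0.12 and 0.0697 between libraries of letters A, B and C. Libraries of unlike letters were not compared, so these values cannot decide whether the letters mark pairs. The main fit did not take the letters as pairs, and the labels tie no letter to a replicate number. With 3 libraries per condition, values below 1 CPM rest on few reads: Igfbp5 had 7 counts in Meis1-OE library A, and without genes under 10 counts in any library 21 of the 22 were tested.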
